A study of Mus musculus with 8 samples.

Results

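Phase II conjugation enzymes attach a polar group to drugs, dietary chemicals, steroids and bile pigments so that the product can be carried out of the cell. The members described here were all probe sets whose single gene symbol in the platform annotation falls in the Ugt, Sult or Gst families. A Ugt symbol names a UDP-glycosyltransferase of the Ugt1, Ugt2 or Ugt8 subfamilies, and a Sult symbol a sulphotransferase. A Gst symbol names a soluble glutathione S-transferase of the alpha, kappa, mu, omega, pi, theta or zeta class (Gsta, Gstk, Gstm, Gsto, Gstp, Gstt, Gstz). The members numbered 42 of the 18443 probe sets on the array and covered 34 of 10401 named genes. Glucuronidation had 8 probe sets for 7 genes, sulphation 10 for 9 genes and glutathione transfer 24 for 18 genes. The 8 include Ugt8a, counted there by its symbol although it makes galactosylceramide. A further 5 probe sets matched the families but listed several genes and were left out. As a result no Ugt1 gene, the subfamily whose members share their last exons, had a member.

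The samples were enterocytes, the absorptive cells lining the small intestine, from male C57BL/6 mice aged 2.5 to 3.0 months on a standard diet. IE-Cpr-null mice are deficient in Cpr, the reductase that hands electrons to microsomal P450 enzymes, in the intestinal epithelium, and were set against wild-type (WT) littermates. The labels do not say which promoter drives the deletion. Each genotype had 4 arrays, and every array carried a pool of RNA from 2 mice. An error below therefore rests on the spread between pools. Values are log2 and relative: each probe set had been centred on the median of the WT arrays, so no expression level is known and genes cannot be ranked by abundance. A difference is the IE-Cpr-null mean less the WT mean, over 4 pools each, with a moderated standard error (SE) from limma.

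The families share a plan. Glucuronosyltransferases sit in the endoplasmic reticulum membrane and use UDP-glucuronic acid, sulphotransferases are cytosolic and use the sulphate donor PAPS, and glutathione transferases couple glutathione to electrophiles. The intestinal epithelium is known as a site where swallowed chemicals are conjugated before they reach the liver. Many of these genes are textbook targets of the xenobiotic sensors Nrf2 and the aryl hydrocarbon receptor.

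Some pools held RNA that enterocytes do not make, and these values stand beside the results they touch. Means of 12 measured pancreatic acinar markers (of 16) were -0.59, 1.41, -4.41 and 0.61 on WT arrays 1 to 4 and -1.76, -4.54, -4.64 and -4.53 on IE-Cpr-null arrays 1 to 4. Hepatocyte markers (14 of 19 measured) averaged 5.02 and 3.08 on IE-Cpr-null arrays 2 and 3 and between -0.33 and 0.17 elsewhere. Muscle and stromal markers (13 of 15) averaged 3.97 on IE-Cpr-null array 1 and 1.56 on WT array 2. Acta1, a muscle actin gene of that list, was higher on every IE-Cpr-null array (difference 2.04, SE 0.145, adjusted p = 0.00531 in limma over genes). It did not stand for its list, whose means were -0.17, -0.23 and -0.27 on IE-Cpr-null arrays 2, 3 and 4. The 11 measured enterocyte markers, among them Vil1 and Fabp2, stayed between -0.10 and 0.041 on average on every array. Because the values are centred, whether a marker is absent from a pool cannot be read. Of the other lists, means ran from -0.15 to 0.033 in WT and -0.29 to -0.053 in IE-Cpr-null for goblet cells (7 of 9 measured), from -0.20 to 0.67 and -0.87 to 1.38 for Paneth and crypt base cells (3 of 6), and from -0.25 to 0.061 and -0.40 to -0.13 for enteroendocrine cells (8 of 8). They ran from -0.062 to 0.088 and -0.079 to 0.21 for T cells (10 of 10), from -0.51 to 0.91 and -1.16 to -0.20 for macrophages and dendritic cells (8 of 10), from -0.14 to 0.29 and -0.39 to 0.97 for B and plasma cells (4 of 7), and from -0.088 to 0.023 and -0.68 to -0.19 for ileum (4 of 8). In pooled tissue RNA, fewer cells of a type and less RNA per cell cannot be told apart.

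No conjugation enzyme passed the test of genotype. In limma, with p adjusted over all probe sets, 0 of the 42 members reached an adjusted p of 0.05, where 0.0217% of all probe sets did. The lowest adjusted p among them was 0.318, for Gstk1. At an unadjusted p under 0.05, 5 members were lower in IE-Cpr-null (11.9%) and 0 higher, against 4.47% of all probe sets lower and 2.92% higher. These were Ugt2b38, Ugt2b5, Gstk1, Gstm7 and Gstm5. The count was 2 without the hepatocyte-rich IE-Cpr-null arrays 2 and 3, and 3 without the muscle-rich WT array 2 and IE-Cpr-null array 1. It was 2 without WT array 2, 10 without WT array 3, 3 without WT array 4 and 2 without IE-Cpr-null array 3. The shares of all probe sets above belong to the fit on all arrays and are not given for these settings. Whether the shifts in count are particular to the members therefore cannot be read. In 2 members, Ugt2b5 and Gstk1, every IE-Cpr-null array lay below every WT array (4.76%), against 2.47% of all probe sets. In 0 members did every IE-Cpr-null array lie above every WT array, against 1.64% of all probe sets.

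The families differed in how far their members spread. The median difference was -0.17 for glucuronidation, -0.084 for glutathione transfer and 0.020 for sulphation, beside 0.016 over all probe sets. These medians moved with single arrays. Glutathione transfer ran from -0.010 without WT array 2 to -0.21 without WT array 3, glucuronidation from -0.11 to -0.23 without the same arrays, and sulphation from 0.0068 without IE-Cpr-null array 4 to 0.037 without WT array 1. Differences below 0 were seen in 5 of 8 glucuronidation (62.5%), 17 of 24 glutathione (70.8%) and 4 of 10 sulphation probe sets (40.0%), against 42.5% of all probe sets. All 10 sulphation differences were within 0.1 of 0, as were 64.9% of all probe sets.

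**Figure D1:**
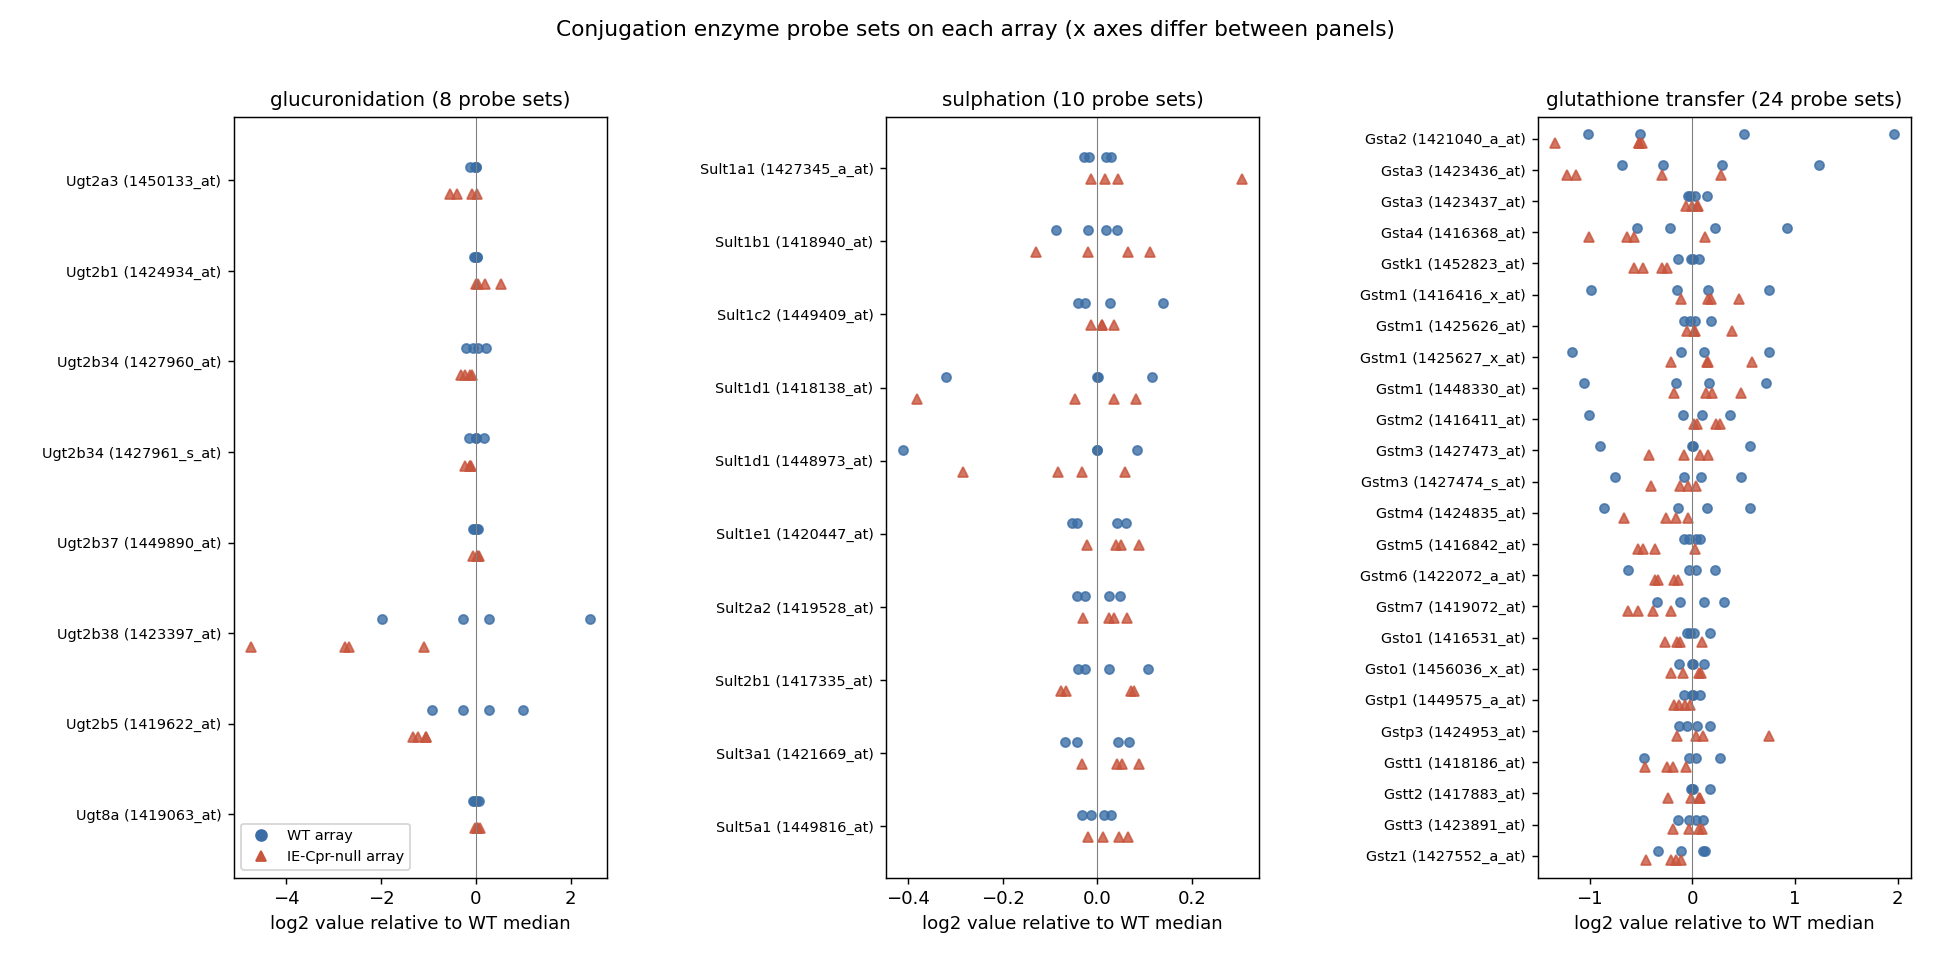
Each row is a probe set of a conjugation enzyme and each point an array, with 4 WT arrays (circles) and 4 IE-Cpr-null arrays (triangles), on the log2 scale relative to the WT median; the x axes differ between the 3 family panels. Ugt2b5 and Gstk1 are the rows whose groups do not overlap, Ugt2b38 has the widest range, and the sulphotransferases stay near 0.

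Ugt2b38 and Ugt2b5 had the largest differences of any member. Both encode glucuronosyltransferases of the Ugt2b subfamily, lie on the same chromosome and belong to a subfamily of similar sequences, so a probe set of one may also read the other, which was not checked. The 250 bases before their annotated start sites are shown because this pair had those differences; they come from RefSeq on GRCm38.p6, minus strand, at chr5:87140341-87140590 for Ugt2b5 and chr5:87424204-87424453 for Ugt2b38. Capitals mark bases that differ from, or are missing in, the other sequence in a global alignment.
Ugt2b5: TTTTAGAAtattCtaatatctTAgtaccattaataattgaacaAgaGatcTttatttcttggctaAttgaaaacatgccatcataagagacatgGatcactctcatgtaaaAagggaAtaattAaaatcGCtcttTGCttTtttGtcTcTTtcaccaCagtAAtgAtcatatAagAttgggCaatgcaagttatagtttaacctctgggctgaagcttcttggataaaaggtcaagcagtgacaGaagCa
Ugt2b38: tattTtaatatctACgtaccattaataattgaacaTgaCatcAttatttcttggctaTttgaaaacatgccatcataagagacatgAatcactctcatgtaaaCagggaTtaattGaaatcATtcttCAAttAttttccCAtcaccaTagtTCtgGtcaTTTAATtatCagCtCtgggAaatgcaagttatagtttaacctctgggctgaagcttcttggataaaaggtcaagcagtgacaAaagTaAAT
The aligned sequences were 81.5% identical with gap positions counted, and 62 bases in a row were the same close to the start site.

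Ugt2b38 read -0.28, 2.40, -1.99 and 0.28 on WT arrays 1 to 4 and -2.69, -2.76, -4.75 and -1.10 on IE-Cpr-null arrays 1 to 4. The WT arrays alone spanned 4.40, and IE-Cpr-null array 4 lay above WT array 3, so the groups overlapped. Its difference was -2.93 (SE 1.05, 95% interval -5.37 to -0.48; limma unadjusted p = 0.0249, adjusted p = 0.567). Without the hepatocyte-rich arrays it was -2.0.

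Ugt2b5 read -0.28, 0.99, -0.92 and 0.28 in the WT pools and -1.05, -1.05, -1.32 and -1.21 in the IE-Cpr-null pools. The IE-Cpr-null pools were close together (SD 0.13) and the WT pools were not (SD 0.81), and the gap between the groups was the narrow one between WT array 3 and the highest IE-Cpr-null arrays. The difference was -1.18 (SE 0.367; limma unadjusted p = 0.0136, adjusted p = 0.484). Acinar marker means ran in the same order as Ugt2b5 on the WT arrays, from -4.41 on array 3 to 1.41 on array 2, and were negative on every IE-Cpr-null array; their part in the result was not tested.

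The other Ugt2 genes had smaller differences. Ugt2b34 differed by -0.19 (SE 0.0953) and -0.14 (SE 0.0701) in its 2 probe sets, with groups that overlapped. Ugt2a3, a glucuronosyltransferase typical of gut, read between -0.13 and 0.012 in the WT pools and -0.40, -0.54, -0.090 and 0.016 in the IE-Cpr-null pools, so that IE-Cpr-null arrays 1 and 2 stood apart (difference -0.22, SE 0.124). Ugt2b37 stayed between -0.069 and 0.070 on every array.

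Ugt2b1 went the other way on the pools rich in hepatocyte RNA. It read 0.028, 0.018, -0.029 and -0.018 in the WT pools and 0.044, 0.53, 0.19 and 0.013 in the IE-Cpr-null pools. Arrays 2 and 3 of the IE-Cpr-null group were therefore the high ones, and the other 6 arrays lay within 0.044 of 0. Alb, the hepatocyte albumin gene, read 9.32 and 7.91 on IE-Cpr-null arrays 2 and 3, the highest of its list. Not every marker of that list was high there. Cps1 read -0.81 and -0.46, and Ahsg and Ambp read 5.64 and 1.18 on array 2 but 0.086 and 0.015 on array 3. Alb also read 1.70 on WT array 2 and 1.40 on IE-Cpr-null array 4, where Ugt2b1 read 0.018 and 0.013. The difference of 0.19 (SE 0.111, adjusted p = 0.80 in limma) became 0.029 without IE-Cpr-null arrays 2 and 3. A fall of this kind follows from choosing Ugt2b1 by those arrays, and the part of hepatocyte RNA was not tested. Ugt8a, which makes galactosylceramide rather than drug conjugates, read 0.056, 0.033, -0.054 and -0.033 in the WT pools and 0.080, 0.041, -0.024 and 0.031 in the IE-Cpr-null pools. It differed by 0.031 (SE 0.0411, 95% interval -0.065 to 0.13).

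**Figure D2:**
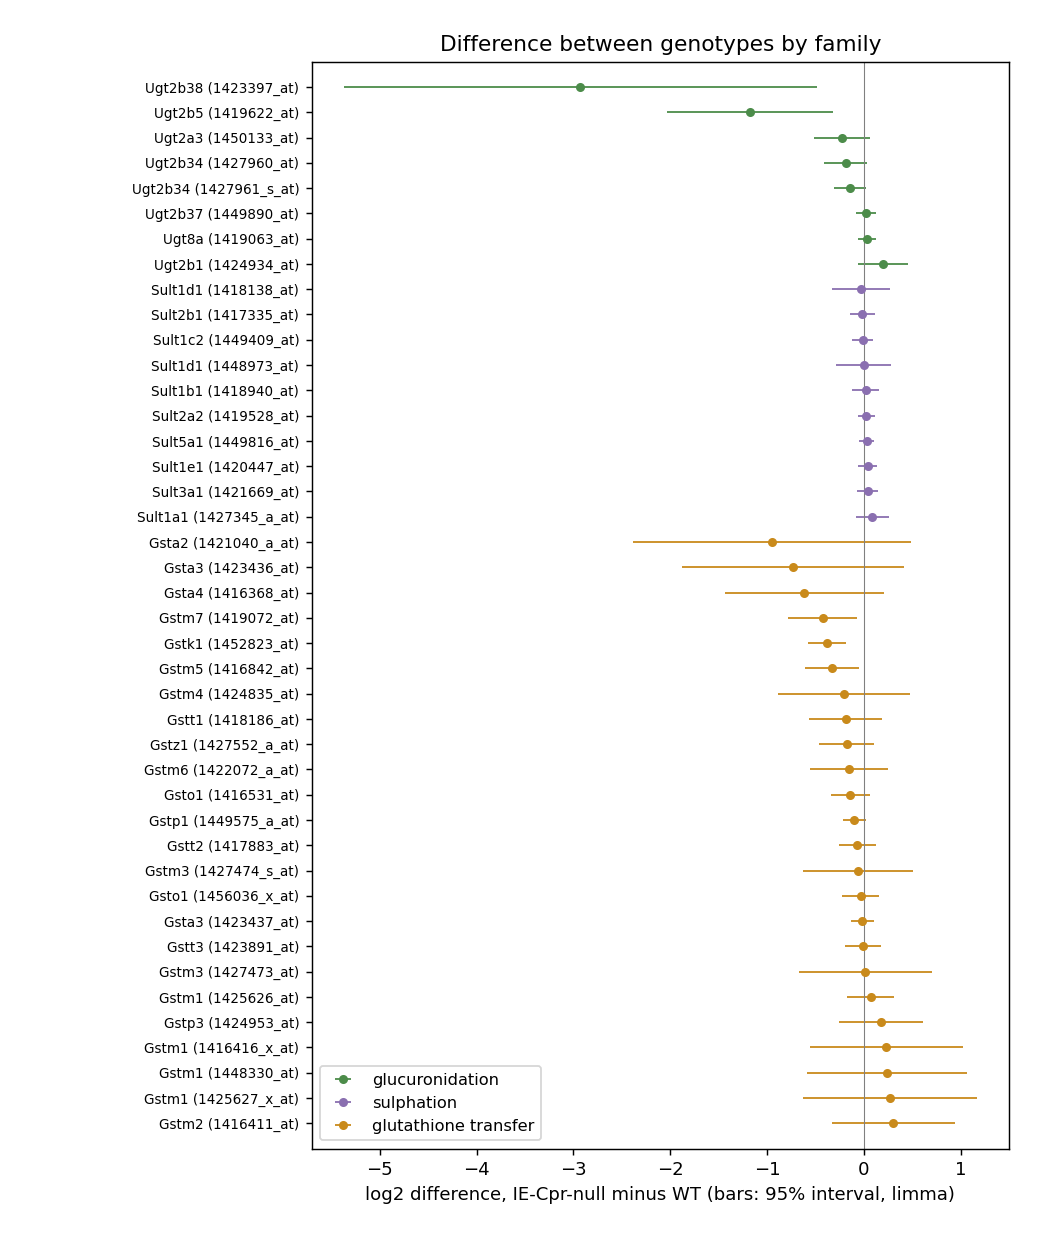
Points are log2 differences (IE-Cpr-null less WT) for the 42 probe sets by family, and bars are 95% intervals from limma over 4 pools in each genotype. Intervals of Ugt2b38, Ugt2b5, Gstm7, Gstk1 and Gstm5 lie wholly below 0, before adjustment, and none lies wholly above it.

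No sulphotransferase passed the test, before or after adjustment. Of the Sult1 genes, Sult1a1, the phenol sulphotransferase, read 0.030, 0.018, -0.018 and -0.027 in the WT pools and 0.044, 0.017, -0.013 and 0.31 in the IE-Cpr-null pools. Only IE-Cpr-null array 4 was raised, and the difference was 0.088 (SE 0.0722, adjusted p = 0.86 in limma), or 0.015 without that array. Sult1b1, which acts on thyroid hormone and small phenols, differed by 0.018 (95% interval -0.12 to 0.16). Sult1c2 differed by -0.014 (-0.12 to 0.095).

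Sult1d1, which sulphates catecholamines, differed by -0.027 and -0.0036 in its 2 probe sets, with the widest intervals of the family (-0.33 to 0.27 and -0.29 to 0.28). Both probe sets were low on WT array 3 (-0.32 and -0.41) and IE-Cpr-null array 2 (-0.38 and -0.28). Sult1e1, the oestrogen sulphotransferase, differed by 0.037 (-0.063 to 0.14).

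Genes of the Sult2, Sult3 and Sult5 subfamilies came next. Sult2a2, of the hydroxysteroid group, differed by 0.022 (-0.066 to 0.11) and Sult2b1, the cholesterol sulphotransferase, by -0.015 (-0.15 to 0.11). Sult3a1 read 0.067, 0.043, -0.069 and -0.043 in the WT pools and 0.089, 0.053, -0.032 and 0.041 in the IE-Cpr-null pools, a difference of 0.039 (SE 0.0463), and Sult5a1 differed by 0.027 (-0.054 to 0.11). No interval of a sulphotransferase reached beyond 0.33 in either direction.

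Several of these quiet members carried the same small profile over the arrays. Sult1e1, Sult2a2, Sult3a1, Ugt2b37 and Ugt8a each correlated above 0.95 (Pearson, 8 arrays) with the array medians over all 18443 probe sets, which ran from -0.025 on WT array 3 to 0.036 on IE-Cpr-null array 1. That was 5 of 42 members (11.9%), against 14.5% of all probe sets, and this comparison was chosen after the values were seen. Their small values thus followed a profile shared by many probe sets. Signal over background is unknown, and whether these genes were detected cannot be told.

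Among glutathione transferases, Gstk1 had the smallest p of all members. It encodes the kappa class enzyme of mitochondria and peroxisomes. Its values were -0.010, 0.067, -0.14 and 0.010 on the WT arrays and -0.57, -0.48, -0.25 and -0.29 on the IE-Cpr-null arrays. All 4 IE-Cpr-null pools were below all 4 WT pools, and the WT pools were close together (SD 0.088). The difference was -0.38 (SE 0.0836, 1.30 times lower, 95% interval -0.58 to -0.19; limma unadjusted p = 0.00216, adjusted p = 0.318). It was -0.41 without the hepatocyte-rich arrays, -0.30 without the muscle-rich arrays and -0.42 without WT array 3, the one low in acinar transcripts.

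Alpha class enzymes, which also reduce lipid peroxides, leaned low but were uneven in WT. Gsta2 read -0.51, 1.96, -1.01 and 0.51 in the WT pools and -0.49, -0.52, -1.33 and -0.52 in the IE-Cpr-null pools. WT arrays 2 and 4 alone stood above the IE-Cpr-null range, and the difference was -0.95 (SE 0.615, adjusted p = 0.853 in limma). It was -0.38 without WT array 2, -1.37 without WT array 3 and -0.45 without the muscle-rich arrays. Gsta4, which clears the lipid aldehyde 4-hydroxynonenal, read -0.22, 0.92, -0.54 and 0.22 in the WT pools and -0.64, -0.57, -1.0 and 0.13 in the IE-Cpr-null pools. Its difference of -0.62 (SE 0.353) came from overlapping groups, and became -0.34 without WT array 2, -0.30 without the muscle-rich pools, -0.35 when the hepatocyte-rich pools were left out and -0.24 with array weights.

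Gsta3 depended on the probe set. One read -0.29, 1.24, -0.69 and 0.29 in the WT pools and -1.13, 0.28, -0.30 and -1.22 in the IE-Cpr-null pools, with the hepatocyte-rich arrays 2 and 3 as the higher pair of their group. Its difference was -0.73 (SE 0.491), -1.31 without those arrays and -0.18 without the muscle-rich arrays. This probe set was chosen by its height on IE-Cpr-null array 2 or 3, so a lower value without the hepatocyte-rich arrays follows from that choice. The part of hepatocyte RNA was not tested. The second probe set stayed between -0.064 and 0.14 and differed by -0.016 (SE 0.0524).

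Mu class genes, a cluster of neighbours on chromosome 3, differed in both directions, with 6 of 11 probe sets above 0 and 5 below. Gstm7 read -0.12, 0.31, -0.35 and 0.12 in the WT pools and -0.38, -0.21, -0.63 and -0.53 in the IE-Cpr-null pools. Only IE-Cpr-null array 2 lay above the lowest WT array, and the difference was -0.43 (SE 0.154; limma unadjusted p = 0.0254, adjusted p = 0.569). Gstm5, another gene of the class, read 0.071, 0.036, -0.083 and -0.036 in the WT pools and 0.028, -0.48, -0.53 and -0.36 in the IE-Cpr-null pools. IE-Cpr-null array 1, the muscle-rich pool, was the exception within its group, and the difference was -0.33 (SE 0.12; limma unadjusted p = 0.0259, adjusted p = 0.569). It was -0.16 without the hepatocyte-rich arrays (limma unadjusted p = 0.215) and -0.44 without the muscle-rich arrays.

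Gstm1 and Gstm2, the major mu class enzymes of many tissues, leaned the other way. Of the 4 Gstm1 probe sets, one read -0.16, 0.71, -1.06 and 0.16 in the WT pools and 0.47, 0.19, -0.18 and 0.13 in the IE-Cpr-null pools. WT held both the highest and the lowest pool, and the difference was 0.24 (SE 0.352, 95% interval -0.58 to 1.06). Its other 3 probe sets differed by 0.068 to 0.27. Without WT array 3 the difference of 0.24 became -0.085. Gstm2 read -0.095, 0.37, -1.01 and 0.095 in the WT pools and 0.015, 0.27, 0.046 and 0.23 in the IE-Cpr-null pools, again with WT array 3 as the low pool. It differed by 0.30 (SE 0.273), and by 0.019 without WT array 3.

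The remaining mu class genes lay within their spread. Gstm3 differed by 0.012 and -0.062 in its 2 probe sets, Gstm4 by -0.21 (SE 0.294) and Gstm6 by -0.15 (SE 0.172). Several mu class coding sequences are near-identical, and a probe set named for one may read another.

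The omega, pi, theta and zeta classes had small differences. Gsto1, which reduces dehydroascorbate and arsenic compounds, read -0.019, 0.17, -0.054 and 0.019 in the WT pools and -0.15, 0.094, -0.26 and -0.12 in the IE-Cpr-null pools in one probe set (difference -0.14, SE 0.0846) and differed by -0.035 (SE 0.0808) in the other. Gstp1, the pi class enzyme, read -0.085, 0.073, 0.0026 and -0.0026 in the WT pools and -0.18, -0.027, -0.073 and -0.13 in the IE-Cpr-null pools. It was below 0 on all 4 IE-Cpr-null arrays, but the groups overlapped (difference -0.099, SE 0.0494, adjusted p = 0.745 in limma).

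Gstp3, also named for its height on IE-Cpr-null arrays 2 or 3, was set apart by a single pool. It read -0.049, -0.13, 0.17 and 0.049 in the WT pools and 0.10, -0.15, 0.74 and 0.035 in the IE-Cpr-null pools, where only array 3 was high. Its difference was 0.17 (SE 0.185), and -0.012 without that array, a fall that follows from the way Gstp3 was named. On that array the B and plasma cell markers averaged 0.97, where IE-Cpr-null arrays 1, 2 and 4 averaged -0.035, -0.39 and -0.19. Ms4a1 read 1.76 there, Cd79b 1.11 and Cd79a 0.79. Jchain, the remaining measured marker of that list, read 0.22, below its 1.11 on WT array 3 and 0.39 on WT array 4. Hepatocyte markers averaged 3.08 on IE-Cpr-null array 3 and 5.02 on IE-Cpr-null array 2, where Gstp3 was lowest. The part of either cell type in the result was not tested.

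Of the theta class, which handles small halogenated compounds, Gstt1 read 0.034, 0.27, -0.47 and -0.034 in the WT pools and -0.47, -0.061, -0.24 and -0.19 in the IE-Cpr-null pools. All its IE-Cpr-null pools were negative but inside the WT range (difference -0.19, SE 0.16). That difference rested on single arrays: it was -0.0068 without the muscle-rich arrays, -0.082 without WT array 2, -0.11 without IE-Cpr-null array 1 and -0.33 without WT array 3 (limma unadjusted p = 0.0263, adjusted p = 0.586). Gstt3 read 0.033, 0.11, -0.14 and -0.033 in the WT pools and -0.19, 0.097, 0.067 and -0.037 in the IE-Cpr-null pools, a difference of -0.0069 (SE 0.0795). Gstt2 differed by -0.068 (SE 0.0813). Gstz1, the maleylacetoacetate isomerase of tyrosine breakdown, read 0.12, 0.11, -0.34 and -0.11 in the WT pools and -0.46, -0.16, -0.11 and -0.21 in the IE-Cpr-null pools (difference -0.18, SE 0.121), with array 1 as the low IE-Cpr-null pool. It was -0.050 without the muscle-rich arrays, -0.10 without IE-Cpr-null array 1 and -0.27 without WT array 3.

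**Figure D3:**
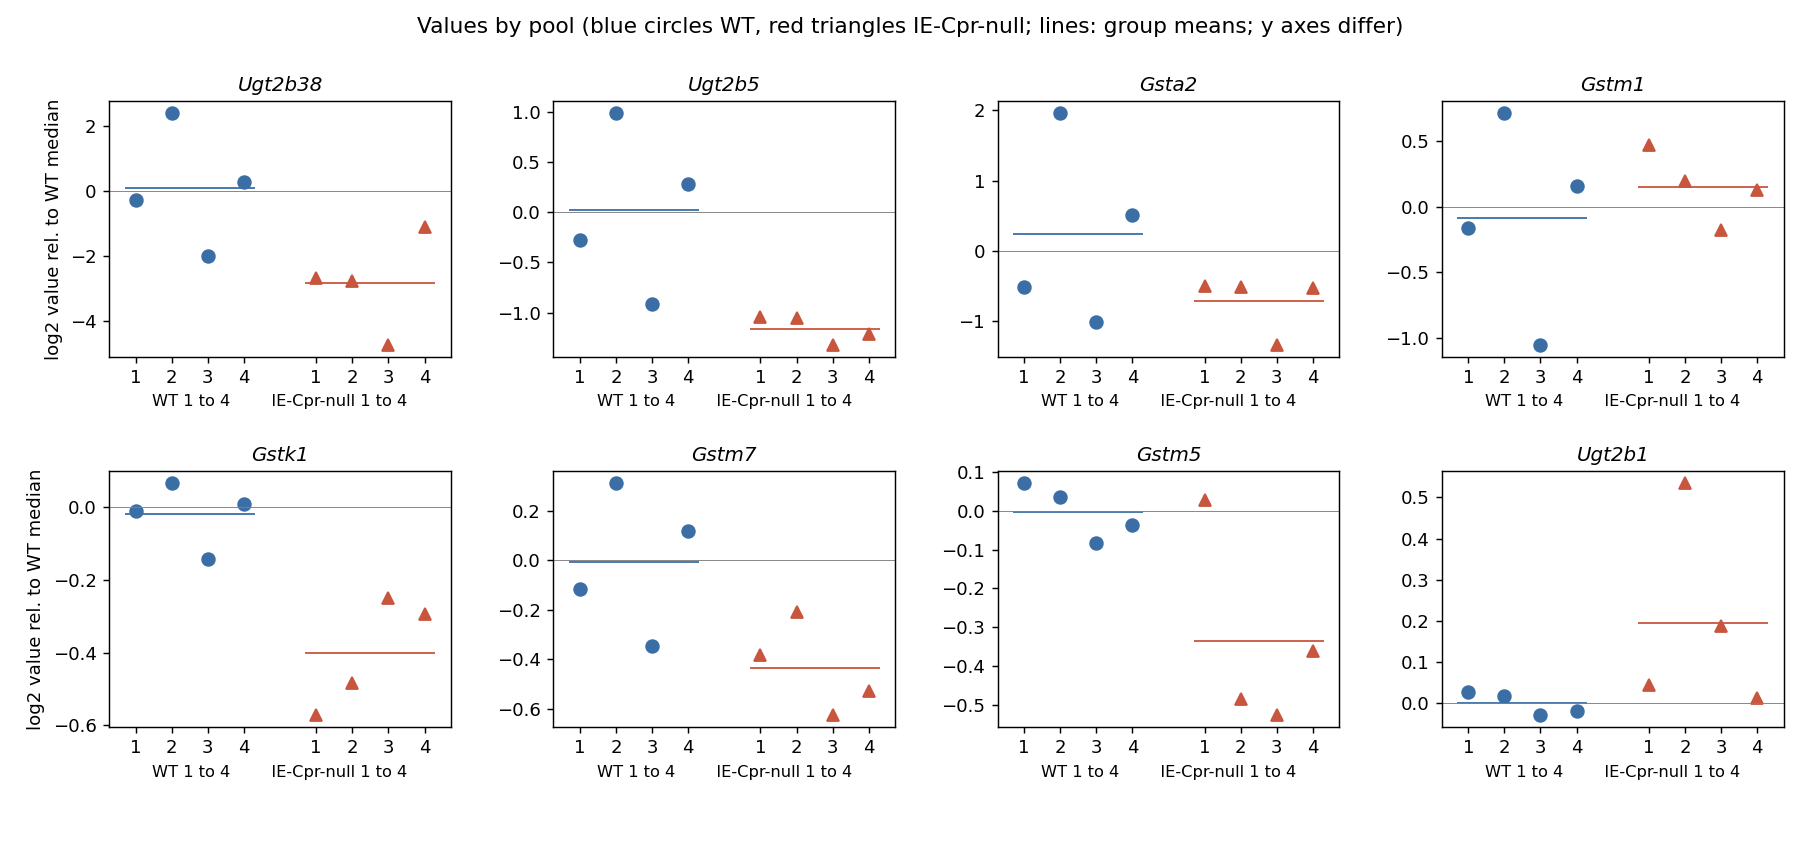
Each panel shows 1 probe set on the 4 WT pools (circles) and the 4 IE-Cpr-null pools (triangles), as log2 values relative to the WT median, with group means as lines and a y axis of its own. WT array 2 is high and WT array 3 low in Ugt2b38, Ugt2b5, Gsta2 and Gstm1, while Gstk1 shows tight WT pools above all IE-Cpr-null pools.

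The WT pools differed among themselves in these genes. WT array 2 was the highest and WT array 3 the lowest WT pool in 26 of the 42 members (61.9%), against 8.07% of all probe sets. WT array 2 exceeded WT array 3 by more than 1 on the log2 scale in 12 members (28.6%), against 0.824% of all probe sets. These comparisons were chosen after the values were seen and carry no test. By class, the pattern held in 4 of 4 Gsta, 9 of 11 Gstm, 3 of 3 Gstt and 5 of 7 Ugt2 probe sets but in 2 of 10 Sult probe sets. Mu class genes varied together, with a median pairwise correlation of 0.73 over the 8 arrays between 7 genes (range -0.22 to 0.94). The arrays are the same for all 7 genes, and whether their probes overlap was not checked.

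Markers from outside the families ran with this pattern. Acinar means were 1.41 on WT array 2 and -4.41 on WT array 3. The 6 duodenum and jejunum markers, all measured, averaged 0.0052, 0.69, -0.34 and 0.023 on WT arrays 1 to 4 and -0.43, -0.52, -1.60 and -0.30 on IE-Cpr-null arrays 1 to 4. Of these, Cybrd1, the duodenal ferric reductase, read 0.28, 2.58, -1.06 and -0.28 in the WT pools and -1.25, -1.04, -1.36 and -1.26 in the IE-Cpr-null pools. Slc40a1, the iron exporter also strong in duodenum, read -0.45, 1.43, -0.68 and 0.45 in the WT pools and -0.88, -2.19, -8.19 and -0.51 in the IE-Cpr-null pools. Both were thus high on WT array 2 and low on WT array 3, and negative on every IE-Cpr-null array. They were picked after their values were seen and carry the list's mean, since the other 4 genes (Lct, Gata4, Fabp1 and Heph) stayed between -0.25 and 0.13 on every array. Of those, Fabp1 was highest in WT on array 3 (0.051), and Gata4 and Heph differed by 0.026 and 0.0075. The part of these transcripts in the conjugation values was not tested.

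WT array 3 (acinar mean -4.41) was the WT pool most like IE-Cpr-null arrays 2, 3 and 4 in acinar transcripts. IE-Cpr-null array 1, at -1.76, lay nearer to WT array 1 (-0.59). Set against WT array 3 alone, some members lay above it on all IE-Cpr-null arrays, a few lay below it, and the rest did neither. All 4 IE-Cpr-null arrays lay above WT array 3 in 20 members (47.6%, against 34.7% of all probe sets), among them 9 of 11 Gstm probe sets. All 4 lay below it in 4 members (9.52%, against 15.1%), namely Ugt2b5, Gstk1, Gstp1 and Sult2b1. With 1 WT pool there is no test of this contrast. It is also tilted upward, because WT array 3 had the lowest array median (-0.025) and was the lowest WT pool in most members. The 20 include Sult1e1, Sult2a2, Sult3a1, Ugt2b37 and Ugt8a, which followed the array medians. For Ugt2b5 the IE-Cpr-null mean lay 0.24 below that pool, and for Gstk1 0.26 below.

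**Figure D4:**
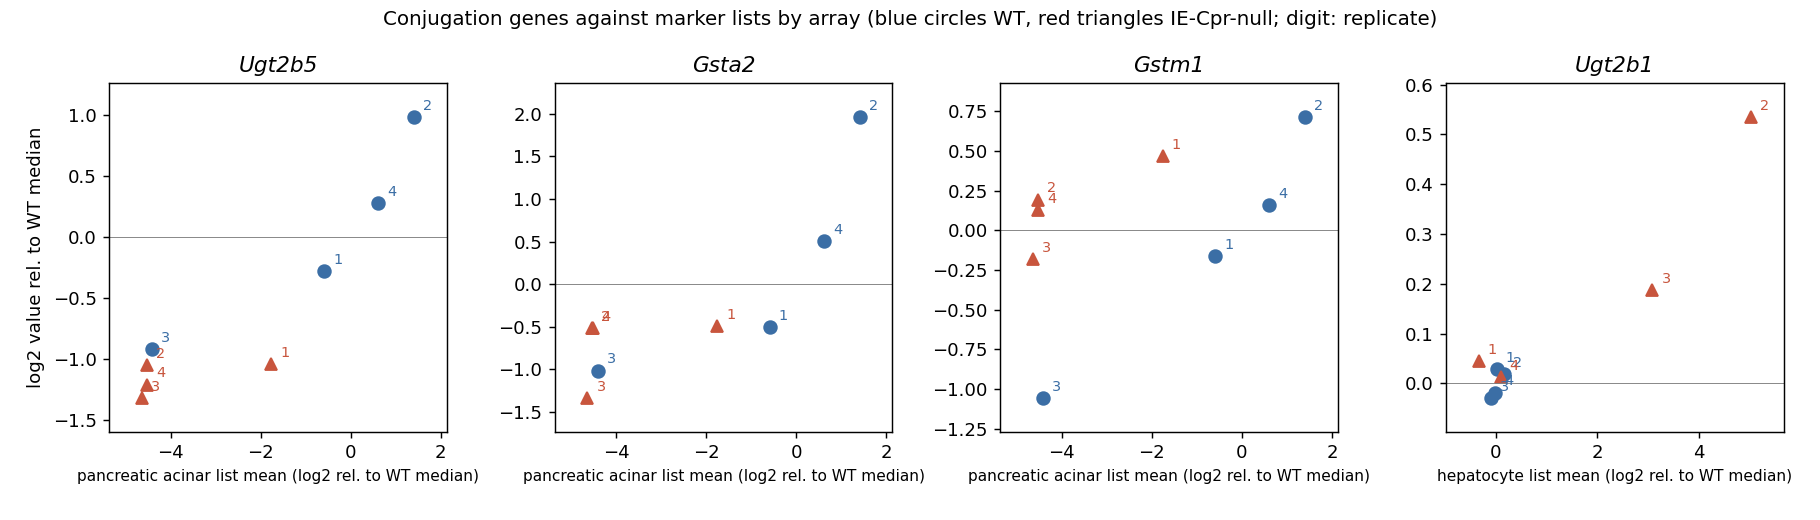
Each point is an array, with WT as circles, IE-Cpr-null as triangles and the replicate number beside it; the y axes give log2 values of Ugt2b5, Gsta2, Gstm1 and Ugt2b1, and the x axes the mean of the pancreatic acinar list or, for Ugt2b1, the hepatocyte list. WT array 3, at an acinar mean of -4.41, lies beside IE-Cpr-null arrays 2, 3 and 4 for Ugt2b5 and Gsta2, while IE-Cpr-null array 1 has an acinar mean of -1.76. For Gstm1, WT array 3 lies below all IE-Cpr-null arrays. Ugt2b1 is raised only on the IE-Cpr-null arrays with hepatocyte means of 5.02 and 3.08.

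The genes that feed, regulate and drain these reactions were read from 7 lists with 83 genes, 70 of them measured, each gene as the mean of its probe sets. No listed gene passed in limma over all genes (0 of 70, against 0.0288% of genes). At an unadjusted p under 0.05, 5 were lower and 3 higher, against 5.42% and 3.27% of all genes.

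Supply of UDP-glucuronic acid included Ugdh, the UDP-glucose dehydrogenase, which read -0.029, 0.17, -0.18 and 0.029 in the WT pools and -0.22, -0.15, -0.41 and -0.31 in the IE-Cpr-null pools. Its difference was -0.27 (SE 0.0854, adjusted p = 0.41 in limma), and only IE-Cpr-null array 2 lay above the lowest WT pool. In the sulphate donor list, 7 of 11 measured genes were lower and 4 higher. Slc26a3, an anion exchanger, had the smallest p there (difference -0.34, SE 0.097), and the PAPS synthase gene Papss2 differed by -0.37 (SE 0.191).

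Glutathione supply was mixed, with 9 of 16 genes lower and 7 higher. Ltc4s, the leukotriene C4 synthase, differed by -0.46 (SE 0.133), Nat8, which acetylates cysteine conjugates, by -0.23 (SE 0.0783), and the chloride channel family member Clic1 by 0.15 (SE 0.0467) with groups that did not overlap, where 1.85% of genes were higher in that way. Gclc, the rate-limiting enzyme of glutathione synthesis, read -0.60, 0.42, -0.019 and 0.019 in the WT pools and 0.33, -0.034, -1.07 and -1.04 in the IE-Cpr-null pools, a difference of -0.41 (SE 0.368).

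Of 7 efflux pumps, 5 were lower. Abcc2, the apical pump for glucuronide and glutathione conjugates, read -0.12, 0.44, -0.091 and 0.091 in the WT pools and -0.12, -0.46, -0.41 and -0.21 in the IE-Cpr-null pools. WT and IE-Cpr-null met at the lowest WT pool without overlapping, as 3.00% of all genes did in the lower direction, and the difference was -0.38 (SE 0.138, adjusted p = 0.486 in limma). Other conjugating enzymes held 7 higher and 3 lower of 10, with As3mt, the arsenic methyltransferase, at the smallest p (-0.18, SE 0.11). The methyltransferases Inmt and Nnmt read 0.57 and 0.51 on the hepatocyte-richest pool, IE-Cpr-null array 2, and at most 0.080 on any other array.

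No regulator reached an unadjusted p under 0.05: the Nrf2 gene Nfe2l2 differed by 0.017 (SE 0.11), Ahr by -0.0035 (SE 0.0947), and Hnf4a, with the smallest p of 11, by 0.15 (SE 0.069). Among 11 other targets of these sensors, Cyp1a2 (5.47, SE 0.589, adjusted p = 0.0537 in limma) and Cyp1a1 (1.91, SE 0.259, adjusted p = 0.0793) were higher on every IE-Cpr-null array than on any WT array. Nqo1, a target of both sensors, differed by -0.42 (SE 0.296). None of the 42 members was higher without overlap, against 1.64% of all probe sets, a share at which a count of 0 tells little.

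Start-site windows of 300 bases from RefSeq (GRCm38.p6, 250 before and 50 after the start) were found for 31 of the 34 genes, in 40 windows. The antioxidant response element core TGACNNNGC, read on both strands, occurred in 3 of the 40 windows (7.5%; Gsta3, Gstm5 and Gstm7), against 12.4% of all 32851 windows. The aryl hydrocarbon receptor core GCGTG, which can fall inside the first motif as in Gstm5, occurred in 11 of the 40 windows (27.5%), from 9 genes including Gsta2, Gstm1, Gstm5 and Gstp1, against 32.4% of all windows. The HNF1 motif, of the liver and gut factor HNF1, occurred in 0 of the 40 windows and 0.00913% of all. Gstm5 is printed as the only member with both cores, from chr3:107895604-107895853 on the plus strand, with its antioxidant core in capitals.
Gstm5: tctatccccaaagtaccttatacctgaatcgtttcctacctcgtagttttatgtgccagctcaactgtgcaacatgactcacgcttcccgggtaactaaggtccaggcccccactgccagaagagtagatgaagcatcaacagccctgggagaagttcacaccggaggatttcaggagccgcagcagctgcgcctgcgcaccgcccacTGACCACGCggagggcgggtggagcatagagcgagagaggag
A match describes the letters in this window and does not mark a bound site.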

How the data were processed

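The authors deposited log2 values per probe set and array, made with GCRMA per the submitters' processing notes (settings: not given in the sources used here). They were also centred: in each of the 18443 probe sets the WT median is 0, to within 9.5e-07. No scanner values were at hand, so the log base rests on GCRMA's usual output. Platform annotation gave 1 symbol to 16689 probe sets, several to 616 and none to 1138; all 34 member symbols were in the GRCm38.p6 gene table. The targeted gene is not analysed here.

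limma 3.58.1 in R 4.3.3 (lmFit, eBayes, two-sided, 2 group means, no block, Benjamini-Hochberg over all probe sets, or over 10401 genes for lists) was fitted to all 8 arrays; SEs are moderated. Members, lists and tests were chosen with earlier results of these data known. Probe sets named with all values were those past the threshold, those whose groups did not overlap and the smallest p of each subfamily. So were the 5 whose higher value on IE-Cpr-null arrays 2 and 3 stood furthest above the median of the remaining arrays. Other members are given by difference, SE or range. Listed genes were named if their groups did not overlap or, failing that, for the smallest p of the list. Named outside these rules, after their values were seen, were Ugt2b38, Gsta2, Gstm5, Gstm1 and Ugt2a3 among members, Papss2, Ltc4s, Nat8, Gclc, Inmt, Nnmt, Nfe2l2, Ahr and Nqo1 among listed genes, and the markers. The dim filter planned for levels became a filter on SD, as the plan allowed. On simulated arrays with 18443 probe sets, 35 of 50 probe sets changed 1.5-fold, 47 at 2-fold, 48 at 4-fold and 47 at 8-fold were recovered, with 12 false among 189 calls. The simulated noise was independent between probe sets, and the changed ones were picked at random from all. Median WT SDs were 0.73 for Gsta and 0.60 for Gstm, against 0.091 over all probe sets. The recovery rates therefore do not carry over to such members. The number of arrays limits precision, and p-values set a difference against the spread between pools, moderated over all probe sets.

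Alternatives were quantile normalization, median centring, array weights, a replicate block, a robust prior, fewer probe sets, 1 value per gene, and arrays left out.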

Additional observations from a re-analysis of the deposited data

Results flagged for a closer look

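In 4 of 84 groups of 4 arrays, 1 array stood far from the other 3, where chance gives about 1 in 20. Gsta2 read -1.33 on IE-Cpr-null array 3, against -0.52 to -0.49 on the others of its group. Ugt2a3 read -0.13 on WT array 3, against -0.0075 to 0.012. Sult1d1 read -0.41 on WT array 3 in 1 of its 2 probe sets, against -0.00016 to 0.084, and Gstt2 read 0.17 on WT array 2, against -0.013 to 0.0037.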

How the results depend on the processing

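No member passed an adjusted p of 0.05 in limma in any alternative but array weights, where 4 did, all lower: Gstm5 (adjusted p = 0.0354), Gstm7 (0.0421), Ugt2b5 (0.0405) and Gstk1 (0.0346). Over the other settings their adjusted p reached 0.972, 0.974, 0.970 and 0.970 in the same order. Array weighting gave IE-Cpr-null array 4 a weight of 6.49 and called 741 probe sets in all. Over all probe sets, 4 passed, against 1 with quantile normalization, 1 with the replicate block, 7 when the less variable probe sets (SD at or under the median) were left out and 1 to 16 with an array left out. Members lower at an unadjusted p under 0.05 numbered 5, against 2 with quantile normalization, 2 without the hepatocyte-rich arrays, 3 without the muscle-rich arrays and 2 to 10 with an array left out; 1 was higher with array weights. The sulphation median moved from 0.020 to -0.015 when those less variable probe sets were left out. Ugt2b38 ran from -3.63 to -1.86 over 19 settings, Ugt2b5 from -1.49 to -0.85 and Gstk1 from -0.43 to -0.29. Changes of sign were followed only in the probe sets named with all values. Among these, differences turned sign in Gstt3 (0.090 without the muscle-rich arrays, -0.051 to 0.051 with an array left out). They also did in Gstp3 (-0.012 to 0.28) and in the 1 Gstm1 probe set followed (-0.085 to 0.50). Whether other members turned sign was not read. Apart from settings that test fewer genes or arrays, the cause was not tested. Same-numbered arrays correlated from -0.058 to 0.26 in their deviations, and 4 of 8 arrays correlated best with their own number, so numbers were not taken as pairs. Centred values hide which members were above background.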
